A study of Rattus norvegicus with 6 samples.

Results

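The probes whose systematic names begin with MRuc formed a class of 685 probes among the 24684 of the array, each with a name of its own and 3 replicate spots. Of these, 408 (59.6%) were kept for comparison because every array of the border zone group, the sham group or both detected them well above background, among 17930 such probes on the whole array. Of the other 277, 272 were too dim and 5 had no spot free of outlier flags on some array. The meaning of the prefix, the genomic position and the sequence of each transcript are not given in the sources used here, so the transcripts are called by their names and their noncoding status rests on the label of the class alone.

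Long noncoding RNAs are transcripts that are not translated into protein. Some act in the nucleus on chromatin or transcription, others in the cytoplasm on mRNA stability and translation, and many are present at low levels and in few cell types. In the infarcted heart, the border zone is the living muscle next to the ischaemic core, where stress responses of muscle cells and the entry of inflammatory cells begin within hours.

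RNA was taken from the myocardium of male Wistar rats. The labels give each array a number of its own but do not say which animal, or how many, each came from. In the border zone group (arrays M17, M24 and M25), the LAD, the left anterior descending coronary artery, was ligated, and after 6 h the border zone was located by TTC&EB double staining. The sham group (arrays C4, C5 and C6) was sham-operated and its control zone sampled at 6 h. The animals' age is not stated. RNA from whole tissue was hybridised, so fewer cells of a type and less RNA per cell cannot be told apart. With 3 arrays per group, precision is limited by their number.

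Several arrays stood apart. The 3 border zone arrays and C4 shared 1 scan, whereas C5 and C6 were each scanned in another. In the border zone, M25 fell between the other two arrays for all 4 MRuc probes that differed over 2-fold between those, and for 97.6% of the 572 such probes of the whole set. Across the 408 MRuc probes, the Pearson correlation of M25 was 0.997 with M17 and 0.997 with M24, against 0.992 between M17 and M24, so M25 may not be an independent sample. Of 12 cardiomyocyte markers, all 12 were well above background on every array. Their summed level, in multiples of each array's 75th percentile signal, ranged from 842 to 953 in the border zone and from 872 to 1126 in sham. Of 14 measured central neuron markers, all 14 had their 2 highest levels on C5 and C6. Their summed level was 0.333 to 0.468 in the border zone, 0.622 on C4, 6.46 on C5 and 6.48 on C6. Of these markers, 7 to 8 were well above background on the border zone arrays, 7 on C4, 9 on C5 and 10 on C6. Syt1, Gad2 and Slc17a7 were well above background on no array. The count of 14 thus includes signals that were not well above background. All 7 astrocyte and all 8 oligodendrocyte markers were likewise highest on C5 and C6, with summed levels of 47.3 to 57.7 and 2.60 to 3.25 in the border zone, 56.7 and 5.30 on C4, 70.8 and 12.0 on C5, and 76.2 and 14.8 on C6. The main results are therefore given pooled and against C4 alone. The comparison with C4 is the fit with scan as a block. It has no sham replicate, and its 2 residual degrees of freedom come from the border zone arrays only.

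Detection of the MRuc class differed within sham. Well above background were 61.3%, 65.0% and 66.8% of the carried MRuc probes on M17, M24 and M25, 61.6% on C4, 32.1% on C5 and 33.8% on C6. C4 thus lay within 1 percentage point of the lowest border zone array, while C5 and C6 detected about as many MRuc probes as each other and far fewer than C4. The MRAK class, another set of transcripts outside RefSeq on this array, gave 61.1% on C4, 31.9% on C5 and 34.5% on C6. RefSeq mRNA probes gave 79.7%, 61.4% and 62.7% there.

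**Figure D1:**
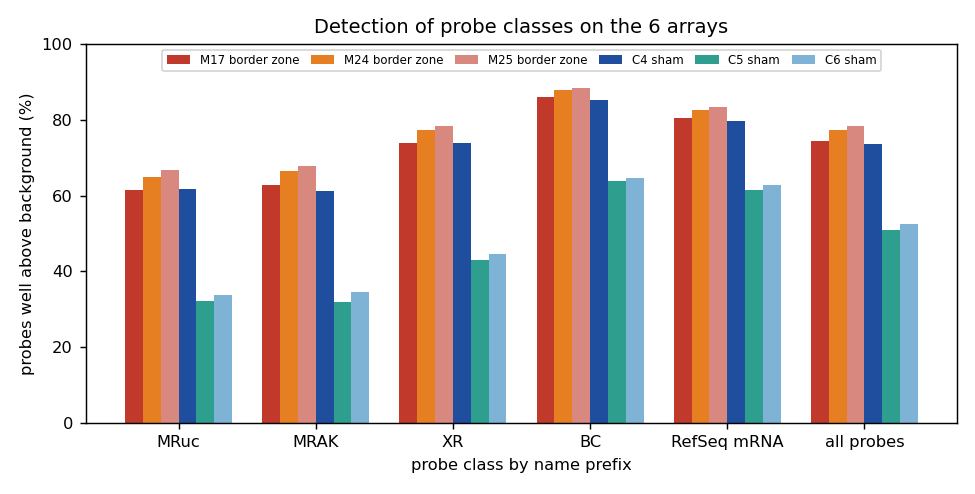
Bars give the percent of carried probes well above background (y axis) on each of the 6 arrays, for 5 probe classes and all probes (x axis). For MRuc, M17, M24, M25 and C4 lie between 61.3% and 66.8%, whereas C5 and C6 lie at 32.1% and 33.8%.

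Each of the 408 kept MRuc probes was detected on M17, M24 and M25, and 202 of them on all 3 sham arrays as well. The other 206 entered through the border zone alone, and no MRuc probe entered through sham alone. Of the 408, 396 were well above background on C4, 216 on C5 and 225 on C6, and 12 on no sham array. The lowest normalized signal (log2 signal minus the 75th percentile of the array) called well above background was -6.98 on C4, -4.49 on C5 and -3.98 on C6. No signal below -4.49 on C5 or below -3.98 on C6 was thus called well above background there. These values are not cutoffs, since some signals above them were not well above background either. Among the 272 dim probes, 210 were well above background on no array, 23 on C4 and 2 on both C5 and C6. All 408 probes seen on every border zone array had a median border zone level of -3.57, and the 33 seen on 2 of them a median of -6.51.

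In the border zone, 21 MRuc probes rose and 32 fell relative to the 3 sham arrays (53 of 408, adjusted p below 0.05 in limma). Over all probes tested, 9.01% were called higher, 10.3% lower and 19.3% in either direction, so the MRuc share lay below the background in both directions (5.15% and 7.84%). At least 2-fold changes were called for 8 MRuc rises (1.96%, against 4.39% of all probes) and 14 falls (3.43%, against 4.13%). The groups did not overlap for 155 of the 408 (38.0%, against 43.7% of all probes), including all 53 called. Of these, 63 were higher (15.4%, against 20.9%) and 92 lower (22.5%, against 22.8%). Of MRuc calls, 39.6% were rises, against 46.7% of all calls. With median scaling 29 rose and 17 fell (63.0% rises, against 67.6% of all calls), and the median over all probes tested moved from -0.03 to 0.16 under that scaling and to 0.09 under quantile scaling.

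Calls were fewer where sham signals were not detected, for MRuc as for all probes. Of the 202 MRuc probes well above background on all 6 arrays, 14 rose and 29 fell (6.93% and 14.4%), against 10.6% and 14.2% of all such probes. Of the 206 others, 7 rose and 3 fell (3.4% and 1.46%), against 5.79% and 2.28% of the 5958 probes of the whole array that were measured in the border zone but not on all 3 sham arrays. Those falls, named after their values were seen, were MRuc007ury, MRuc007msh and MRuc008gta, whose sham signals were not well above background on C6, on C5, and on C5 and C6 respectively. For these, the brighter group was itself partly unmeasured, and no fold is given.

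The median log2 fold change of the 408 MRuc probes was -0.11 (quartiles -0.42 and 0.26), beside -0.03 over all probes tested and -0.09 for MRuc against C4 alone. Quantile scaling turned the MRuc median to 0.10 and median scaling to 0.08. The MRAK class was close to MRuc, with 5.90% rises, 7.86% falls and a median of -0.05. The predicted noncoding RNAs with XR accessions had 13.6% rises, 3.01% falls and a median of 0.35, and the BC cDNA class 6.02% rises, 14.2% falls and a median of -0.14. These classes differ in signal as well. The median log2 processed signal of tested probes was 5.77 for MRuc, 5.67 for MRAK, 7.0 for XR, 7.86 for BC and 8.38 for RefSeq mRNA. The part of signal in the class shares was not tested.

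**Figure D2:**
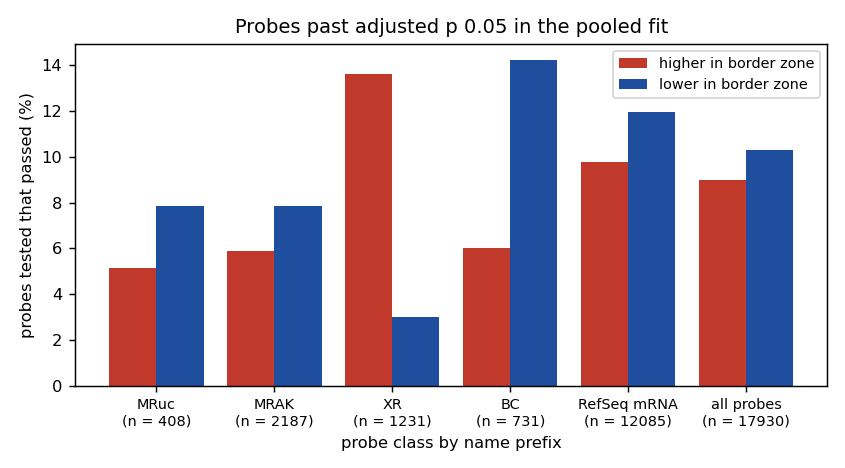
Bars give the percent of tested probes (y axis) called higher or lower in the border zone, for 5 probe classes and all probes (x axis, with the number tested). MRuc has 5.15% higher and 7.84% lower, near MRAK and below the 9.01% and 10.3% of all probes.

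Against C4 alone, 27 MRuc probes were higher (6.62%, against 8.43% of all probes) and 27 lower (6.62%, against 7.5%). Of the 53 pooled calls, 31 also passed there, 15 rises (3.68%, against 5.47% of all probes) and 16 falls (3.92%, against 5.42%), and all 53 kept their sign. The arrays M17, M24, M25 and C4 enter both comparisons. Because the groups did not overlap for any of the 53, their sign against C4 was fixed in advance. A further 23 MRuc probes passed against C4 only. Leaving out M25 ended 45 of the 53 calls and left 5 rises and 3 falls (1.96% of MRuc probes, against 2.84% of all probes). Without C4 there were 72 rises and 77 falls (36.5%, against 40.8%). Without M17 the MRuc share called was 4.90% against 8.03%, without M24 4.41% against 6.51%, and without C5 5.88% against 7.84%, so the counts moved with those of the whole array. Without C5 and C6 as well as M25, only MRuc008qhz passed.

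MRuc008qhz changed most. Its normalized log2 signal was 3.93, 3.10 and 3.47 on M17, M24 and M25, and -2.75, -1.996 and -1.96 on C4, C5 and C6. Every border zone array stood at least 5 log2 units above every sham array, and all 6 arrays were well above background. It rose 53.3-fold (log2 fold change 5.74 ± 0.31, standard error, n = 3 arrays per group, limma adjusted p = 0.000799), and 76.3-fold against C4 (6.25). The call held in all 17 settings tried, including each array left out in turn, where the adjusted p was highest without M25 at 0.0126. Its 3 replicate spots differed by an SD of 0.0118 to 0.267 log2 units across the arrays. The sham arrays themselves differed, with C4 1.71-fold below the mean of C5 and C6.

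The other 7 of the 8 largest rises lay between 2.37-fold and 3.63-fold before background was taken into account. MRuc009bfy was at -2.54, -2.88 and -2.77 on M17, M24 and M25 and at -4.47, -4.83 and -4.47 on C4, C5 and C6. The groups were well apart, but C5 and C6 were not well above background. With the lowest well-above-background signals of those arrays in their place, the rise was 3.00-fold. The fitted log2 fold change was 1.86 ± 0.16 (adjusted p = 0.00247 in limma), and the rise against C4 was 3.34-fold. MRuc007kdv was at 2.37, 1.93 and 2.12 in the border zone and at 0.66, 0.21 and 0.11 in sham. It was bright on all 6 arrays and rose 3.51-fold (1.81 ± 0.20, adjusted p = 0.00459 in limma), and 2.79-fold against C4. MRuc009hgz, at 1.03, 1.22 and 1.03 in the border zone, was at 0.0001 on C4, -0.78 on C5 and -0.89 on C6. C4 lay closest to the border zone here, and the rise was 3.13-fold pooled (1.65 ± 0.25, adjusted p = 0.0117 in limma) and 2.13-fold against C4; without M25 its adjusted p was 0.0665.

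MRuc007ecc was at -2.28, -1.88 and -2.11 in the border zone and at -3.33, -3.54 and -3.60 in sham, where C4 and C5 but not C6 were well above background. By the signals as given, with 2 of 3 sham arrays measuring it, it rose 2.63-fold (1.40 ± 0.15, adjusted p = 0.00452 in limma). MRuc008wqw was at -2.16, -2.36 and -2.28 against -3.46, -3.83 and -3.68, with C5 not well above background. By the same reckoning it rose 2.62-fold (1.39 ± 0.14, adjusted p = 0.00386 in limma). Both passed whichever array was left out, but both entered the comparison through the border zone alone, where they were high. Against C4, which measured both, they were 2.36-fold and 2.29-fold higher.

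The other two of the 8 depended on which sham array was used. MRuc008ixr was at -4.46, -4.58 and -4.56 in the border zone, -5.31 on C4, -6.24 on C5 and -5.97 on C6, and the latter 2 were not well above background. With the lowest well-above-background signals of C5 and C6 in their place, its pooled rise was 1.04-fold (fitted 1.31 ± 0.25, adjusted p = 0.0208 in limma). Its rise was 1.71-fold against C4, the only sham array that measured it. MRuc007nww was at -1.69, -1.67 and -1.70, a narrow border zone range, against -2.36 on C4, -3.53 on C5 and -2.91 on C6. It rose 2.38-fold (1.25 ± 0.29, adjusted p = 0.0364 in limma) but 1.60-fold against C4. The adjusted p without M25 was 0.0987 for MRuc008ixr and 0.136 for MRuc007nww.

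Smaller rises with sham arrays within 1 log2 unit of each other and all 6 arrays detected included 3 further probes. MRuc008iis was at -0.35, -0.88 and -0.65 against -1.12, -1.80 and -1.81, a 1.93-fold rise (0.95 ± 0.25, adjusted p = 0.0475 in limma) that missed the threshold against C4 (adjusted p = 0.226). MRuc008wqn was at -0.45, -0.83 and -0.66 against -1.64, -1.45 and -1.41, and rose 1.80-fold (0.85 ± 0.14, adjusted p = 0.0153 in limma). MRuc008gol was at -0.94, -1.14 and -1.03 against -1.68, -1.66 and -1.96, and rose 1.66-fold (0.73 ± 0.13, adjusted p = 0.0188 in limma). Against C4, MRuc008wqn was 1.98-fold and MRuc008gol 1.56-fold higher. For these 3 the pair of groups did not overlap, and the gaps were smaller than those of the probes above. Without M25 none of the 3 passed (adjusted p = 0.160, 0.0944 and 0.113).

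**Figure D3:**
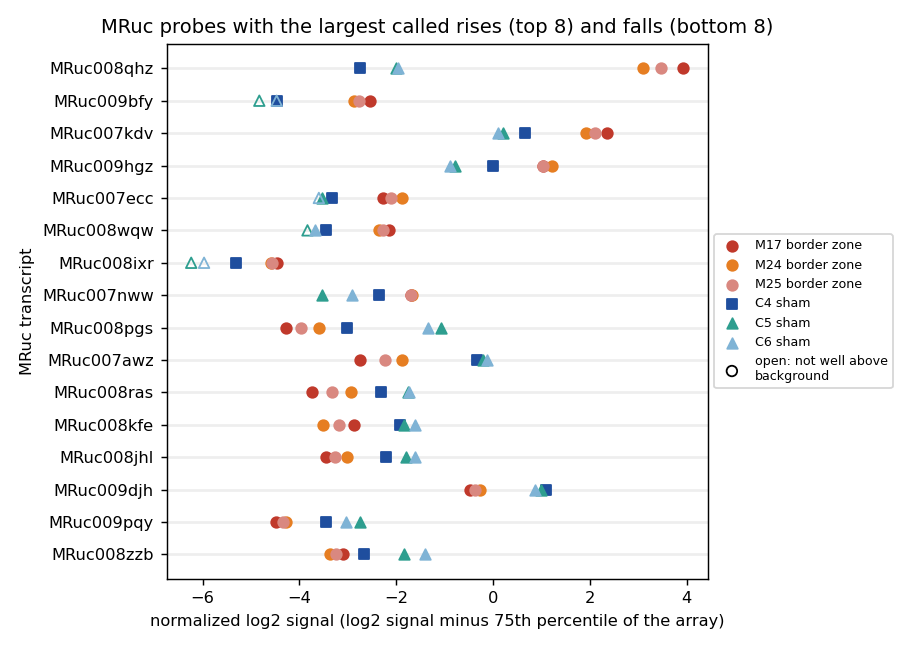
Points give the normalized log2 signal (x axis) on each array for the 8 MRuc probes with the largest called rises (upper rows) and the 8 with the largest called falls (lower rows). Open symbols were not well above background. MRuc008qhz stands apart, with border zone arrays at 3.10 to 3.93 and sham arrays at -2.75 to -1.96.

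Among falls, 2 probes changed at least 4-fold, and only 1 of them did so evenly over the sham arrays. MRuc007awz was at -2.76, -1.89 and -2.22 on M17, M24 and M25 and at -0.34, -0.21 and -0.13 on C4, C5 and C6. The sham arrays lay close together and clear of the border zone arrays. It fell 4.18-fold (log2 fold change -2.06 ± 0.23, adjusted p = 0.00504 in limma), and was 3.87-fold lower than C4. MRuc008pgs was at -4.28, -3.59 and -3.96 in the border zone, -3.02 on C4, -1.07 on C5 and -1.33 on C6. Its pooled fall was 4.39-fold (-2.13 ± 0.54, adjusted p = 0.0429 in limma), but C4 was 3.53-fold below the mean of C5 and C6, and against C4 the difference was 1.89-fold with an adjusted p of 0.112 in limma. Without M25 its adjusted p was 0.147. The central nervous tissue markers were also higher on C5 and C6, and their part in this fall was not tested.

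MRuc009djh gave the fall with the smallest standard error among the 8 largest. It was at -0.48, -0.26 and -0.38 in the border zone and at 1.09, 0.99 and 0.87 in sham, with the sham arrays within 0.22 log2 units of each other. It fell 2.57-fold (-1.36 ± 0.12, adjusted p = 0.00275 in limma), and was 2.77-fold lower than C4. MRuc009hnl, taken after its values were seen because it passed whichever array was left out, was at -2.20, -2.26 and -2.29 against -0.89, -1.03 and -1.23. It fell 2.30-fold (-1.20 ± 0.13, adjusted p = 0.00443 in limma), and was 2.56-fold lower than C4. In all, 8 of the 53 called probes passed whichever single array was left out, namely the rises MRuc008qhz, MRuc009bfy, MRuc007kdv, MRuc007ecc and MRuc008wqw and the falls MRuc007awz, MRuc009djh and MRuc009hnl. Of these, MRuc009bfy, MRuc007ecc and MRuc008wqw were not measured on all 3 sham arrays and entered the comparison through the border zone, where they were high. How many probes of the whole array passed in this way was not counted. Leaving out M25 alone left 1.96% of MRuc probes called, against 2.84% of all probes.

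The other 5 of the 8 largest falls were smaller against C4 than pooled. MRuc008ras was at -3.73, -2.94 and -3.32 in the border zone and at -2.31, -1.75 and -1.73 in sham, and fell 2.65-fold (-1.40 ± 0.26, adjusted p = 0.0199 in limma). MRuc008kfe was at -2.87, -3.51 and -3.19 against -1.91, -1.85 and -1.62, and fell 2.63-fold (-1.40 ± 0.19, adjusted p = 0.00880 in limma). MRuc008jhl was at -3.46, -3.01 and -3.27 against -2.22, -1.79 and -1.61, and fell 2.59-fold (-1.37 ± 0.21, adjusted p = 0.0110 in limma). In each of these C4 was the sham array nearest to the border zone. MRuc009pqy was at -4.49, -4.27 and -4.35 against -3.44, -2.75 and -3.03, and fell 2.45-fold (-1.29 ± 0.20, adjusted p = 0.0114 in limma). MRuc008zzb was at -3.09, -3.37 and -3.25 against -2.67 on C4, -1.85 on C5 and -1.40 on C6, and fell 2.40-fold (-1.27 ± 0.33, adjusted p = 0.0460 in limma). Against C4, MRuc008ras (adjusted p = 0.117), MRuc008kfe (0.0571) and MRuc008zzb (0.0750) did not pass, and MRuc008zzb was 1.48-fold lower. MRuc008jhl and MRuc009pqy were 2.04-fold and 1.90-fold lower than C4 and passed (adjusted p = 0.0494 and 0.0280 in limma). Without M25 the adjusted p of the 5 ranged from 0.0613 for MRuc008kfe to 0.157 for MRuc008zzb.

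Of the 53 called probes, 31 changed less than 2-fold, down to a log2 fold change of 0.39 for rises and -0.48 for falls. At an unadjusted p below 0.05, 49 MRuc probes were higher and 70 lower. Changes of at least 2-fold that did not pass numbered 22, of which 12 were lower and 10 higher. The counts at an unadjusted p and of changes that did not pass were not taken over all probes. They are therefore no result about the MRuc class.

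The levels of some MRuc probes were split within sham, between C4 and both C5 and C6. Both C5 and C6 were above every other array for 105 MRuc probes (25.7%, against 23.6% of all probes) and below every other array for 84 (20.6%, against 23.2%). For 32 MRuc probes (7.84%, against 6.53% of all probes) the mean of C5 and C6 was at least 2-fold above C4, and for 27 (6.62%, against 6.56%) at least 2-fold below. At least 4-fold above C4 were 7 MRuc probes (1.72%, against 2.12% of all probes). All 7 were lower in the border zone by the pooled estimate, with log2 fold changes of -2.58 to -0.97. Against C4 they ranged from -0.41 to 0.83 with a median of -0.10. Because the 7 were picked by C5 and C6 lying above C4, pooled estimates below those against C4 were fixed in advance. None of the 7 passed in either limma fit. Since C4 is 1 array, the split within sham has no replicate check.

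MRuc007woo had the largest such excess. It was at -6.28, -6.33 and -5.89 in the border zone and -5.96 on C4, but at -2.32 on C5 and -2.48 on C6, an 11.8-fold excess over C4. C4 lay inside the border zone range, and the pooled log2 fold change of -2.58 ± 0.99 (adjusted p = 0.120 in limma) became -0.20 against C4. MRuc009gus was at -4.74, -4.88 and -4.86 in the border zone, -5.16 on C4, -2.10 on C5 and -1.67 on C6, 9.67-fold above C4. MRuc008sjd was at -4.41, -4.12 and -4.37 in the border zone, -4.16 on C4, -1.39 on C5 and -1.01 on C6, 7.76-fold above C4. MRuc008euj was at -5.35, -5.90 and -5.67 in the border zone, -5.55 on C4, -2.78 on C5 and -2.41 on C6, also 7.76-fold above C4. In all 4, C4 was nearer to the border zone arrays than to C5 and C6, which stood together above them. The central neuron, astrocyte and oligodendrocyte markers were also highest on C5 and C6. Their median differences of C5 and C6 from C4 were 3.77, 2.26 and 4.07 log2 units, over signals partly not well above background. On C4, the summed levels of the central neuron and oligodendrocyte markers were above the border zone range. That of the astrocyte markers was within it. The part of nervous tissue RNA in these 4 was not tested. Leaving out C4 gave all 4 an adjusted p of 0.000517 to 0.00112 in limma, since C5 and C6 alone then stood for sham. The 4 were picked for C5 and C6 lying above C4, so these p-values are no test of a fall.

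The reverse split reached at least 4-fold for 3 MRuc probes (0.735%, against 0.658% of all probes). MRuc007ryd was at -0.29, -0.20 and -0.33 in the border zone and -0.49 on C4, but at -2.55 on C5 and -2.48 on C6, 4.07-fold below C4. MRuc009mni was at 0.31, -0.10 and 0.06 in the border zone, 0.05 on C4, -2.23 on C5 and -1.70 on C6, 4.05-fold below C4. Both were well above background on all 6 arrays, and C4 was near or within the border zone range. The pooled log2 fold changes were 1.57 ± 0.56 and 1.39 ± 0.58 (adjusted p = 0.105 and 0.147 in limma), against 0.22 and 0.04 relative to C4. Here too the choice by C5 and C6 lying below C4 fixed in advance that the pooled values were the higher. MRuc008vlz was at -1.20, -1.38 and -1.48 in the border zone, -0.68 on C4, -1.98 on C5 and -3.63 on C6, and MRuc007okw at -3.62, -3.65 and -3.75, -3.60, -5.61 and -4.84. C6 did not measure the first of these, nor C5 and C6 the second. Of the 27 probes at least 2-fold below C4, 5 were well above background on all sham arrays and 16 on neither C5 nor C6.

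**Figure D4:**
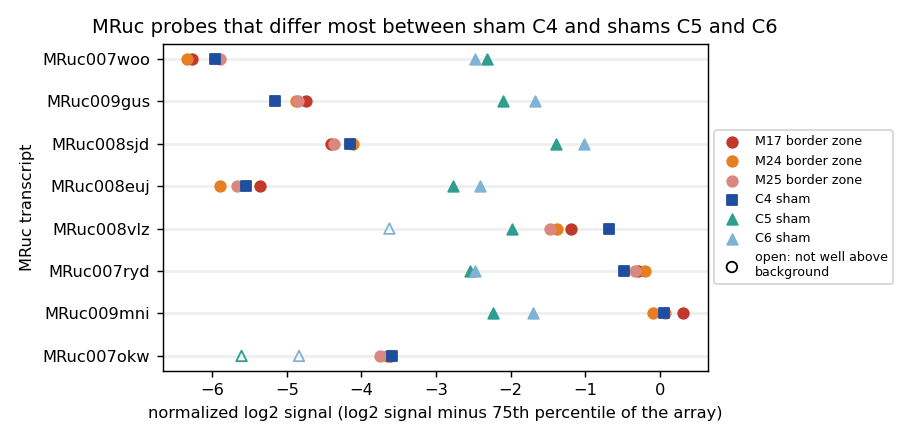
Points give the normalized log2 signal (x axis) on each array for the 4 MRuc probes with C5 and C6 farthest above C4 (upper rows) and the 4 farthest below (lower rows). Open symbols were not well above background. For MRuc007woo, C4 lies at -5.96 among the border zone arrays, and C5 and C6 lie at -2.32 and -2.48.

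Of the 23 MRuc probes that passed against C4 only, 3 are given as examples chosen after their values were seen. MRuc009mqb was at -0.08, -0.17 and -0.12 in the border zone, -1.52 on C4, -0.05 on C5 and 0.59 on C6. Its border zone level was 1.40 log2 units above C4 and within the range of the sham arrays. MRuc008sut was at -2.52, -2.26 and -2.37, against -1.07 on C4, -1.37 on C5 and -2.25 on C6, so that C6 lay just above the border zone arrays. MRuc008imx was at 2.17, 2.26 and 2.17 against 3.05, 2.36 and 2.503, and its pooled log2 fold change of -0.44 ± 0.20 had an adjusted p of 0.170 in limma.

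**Figure D5:**
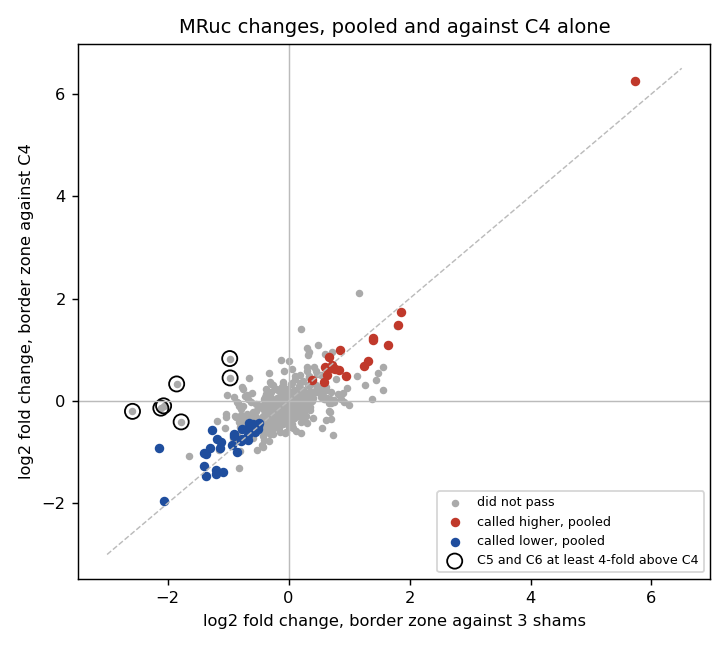
Each point is 1 of the 408 MRuc probes, with its log2 fold change against the 3 sham arrays (x axis) and against C4 alone (y axis); the dashed line marks equal values. MRuc008qhz lies at 5.74 and 6.25, and the 7 circled probes, with C5 and C6 at least 4-fold above C4, lie between -0.41 and 0.83 on the y axis.

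The 4 MRuc probes with the brightest mean signal did not pass. Signals of different probes do not rank transcript levels. MRuc007gex was at 5.78, 5.53 and 5.62 in the border zone and 5.54, 5.73 and 5.89 in sham. MRuc007hrz was at 5.45, 5.29 and 5.35 against 5.31, 5.55 and 5.61. Both groups overlapped in each. The log2 fold changes were -0.08 ± 0.14 and -0.13 ± 0.13, with adjusted p = 0.723 and 0.507 in limma. MRuc007yar was at 4.59, 4.28 and 4.43 against 4.52, 5.04 and 5.25 (-0.50 ± 0.22, adjusted p = 0.154 in limma), and MRuc007tcw at 4.0, 3.77 and 3.85 against 4.20, 4.12 and 3.72 (-0.14 ± 0.17, adjusted p = 0.583 in limma). Against C4 the log2 fold changes of the 4 ranged from -0.33 to 0.11, and none passed in limma.

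The mRNAs whose pattern over the 6 arrays was most like 4 of the MRuc probes were taken from 11299 tested RefSeq mRNA probes with a gene symbol, as a description. For MRuc008qhz these were Pdpn, which encodes the membrane glycoprotein podoplanin, Ppan, a ribosome biogenesis factor, and Tamm41, a mitochondrial enzyme of cardiolipin synthesis (Pearson r of 0.999 each). Their own log2 fold changes were 1.62, 1.44 and 0.34. With only 6 arrays in 2 groups such likeness was common: 583 mRNA probes had r above 0.95 with MRuc008qhz. For MRuc009bfy, with 613 such probes, they were Sdad1, Smn1, which encodes the survival of motor neuron protein, and Sdcbp2. For MRuc007awz, with 558, they were Nes, which encodes the intermediate filament nestin, Npas2, a transcription factor of the circadian clock, and Fads1, a fatty acid desaturase, with log2 fold changes of -1.41, -2.84 and -1.41. For MRuc008pgs, with 551, they were Gnai1, a G protein subunit, Supt4h1, a transcription elongation factor, and Tmem41b, and their log2 fold changes were -0.76, -0.40 and -0.28.

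Markers of other cells moved with the groups as well. Of 6 measured neutrophil markers 5 rose, with a summed level of 4.47 to 4.94 in the border zone and 0.168 to 0.332 in sham. Of the 6, 5 were well above background on C4 but 1 each on C5 and C6, so 5 of the markers in each of those sums were not measured there. Of 8 monocyte and macrophage markers, 3 rose and 2 fell, with summed levels of 56.7 to 59.7 and 21.7 to 30.7, and Cd163 was well above background on no array. Of 4 fibroblast markers 2 fell, with summed levels of 59.5 to 73.4 in the border zone and 92.8 to 119 in sham. None of 3 endothelial and 2 red cell markers passed in limma, and the summed red cell level was 6.44 on M24 and 45.2 to 68.6 on the other arrays. The part of these cells in the MRuc rises and falls was not tested.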

How the data were processed

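The members and marker lists were chosen with earlier results of these data known. Per the file headers, the authors' spot intensity values come from Agilent Feature Extraction 11.0.1.1, background-subtracted and spatially detrended, not normalized between arrays. The authors also deposited a log2 table, whose columns share nearly equal quantiles (medians 5.53 to 5.54); it served only as an alternative. Flags (outlier, well above background) are as deposited. Outlier spots were left out, log2 spots of a probe averaged, and the array's 75th percentile subtracted; a probe counted as well above background when most of its usable spots were. Of 24684 probes, 24614 were carried forward and 17930 tested with limma 3.58.1 in R 4.3.3 (lmFit and eBayes, two-sided), with Benjamini-Hochberg adjustment over all of them. On simulated data the fit recovered 31 of 100 changes of 1 log2 unit and 86 of 100 of 2 log2 units. It made 5 false calls, and most changes of 1 log2 unit were missed. The simulation changed 100 of 17930 probes by each size, a far smaller share than was called in the data. Its noise was independent for each array, with no split within sham and no likeness of M25 to M17 and M24. The shares recovered therefore need not hold for the data. Where sham arrays were not well above background, a signal under that array's lowest well-above-background signal was replaced by it. Some signals not well above background lay above that value, such as MRuc007ecc at -3.60 on C6 (lowest -3.98). The resulting fold is therefore not a strict minimum. Fitted log2 fold changes keep the measured signals. Errors of log2 fold changes are standard errors of the fit.

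RefSeq mRNA probes were named through a GRCr8 gene table (14237 of 15289). Named MRuc probes were the 8 largest called rises and falls, the 6 largest of each with sham within 1 log2 unit and all 6 arrays well above background, the 4 brightest, and the 4 farthest above and below C4 on C5 and C6. A part of the rule for transcripts with several probes found none. Spot medians stood in for means in the normexp alternative. The labels name no animals, so p-values measure the spread between arrays. Scaling and summaries used pandas 2.3.3 and numpy 2.4.6 under Python 3.11.15, and plots matplotlib 3.10.9.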

Additional observations from a re-analysis of the deposited data

How the results depend on the processing

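Of the 53 called MRuc probes, none changed sign in any setting. Their groups did not overlap, so settings that only left out arrays or changed the filter could not turn a sign. The fit with scan as a block could not do so either. Counted as pairs of a named probe and a setting, 81 pairs ended a call and 8 made one. Leaving out 1 array in turn gave 5 (without M25) to 72 (without C4) rises and 3 to 77 falls, 8 and 12 without M17, 7 and 11 without M24, and 10 and 14 without C5. Without M25, C5 and C6 there was 1 rise and, in limma, 0 falls (34 at an unadjusted p below 0.05). Median scaling gave 17 falls and no filter on dim probes 21. The median log2 fold change of MRuc was 0.099 with quantile scaling, 0.080 with median scaling, 0.078 in the authors' table and -0.50 without a filter. The median difference of C5 and C6 from C4 was -0.005, and -0.22 with quantile scaling, -0.16 with median scaling, -0.22 in the authors' table and 0.49 without a filter; the causes were not tested. Normexp correction, which adds an offset, shrank the log2 fold changes of dim probes (MRuc009bfy 0.96, MRuc009pqy -0.40). With it MRuc009bfy still passed (adjusted p = 0.00269 in limma) and MRuc009pqy did not (0.0849). The setting without C5 and C6 equals scan as a block, and both are counted among the pairs. No paired analysis was possible because the groups share no replicate numbers. Depth is limited by signal over background on C5 and C6.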
